A study of Mus musculus with 3 samples.

Results

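The mitotic genes described here are 44 genes of G2 and M phase, the 44 listed rows of a count table with 46095 gene symbols. They comprise Foxm1, the mitotic kinases, the cyclins and Cdk1, and genes of the spindle checkpoint, kinetochore, spindle and cytokinesis. They were listed by name as genes of known function, with earlier results of these data known, and all 44 passed the filter on low counts that left 18216 genes to test. The RNA came from prostate tumors of TRAMP mice (C57BL/6), in which a transgene of a viral oncoprotein acts in the prostatic epithelium, at 37 weeks after birth. Phf8-KO TRAMP mice, the offspring of Phf8 knockout females and TRAMP males, gave the pools Phf8-KO1 and Phf8-KO2, and TRAMP mice with wild-type Phf8 gave 1 pool. Both genotypes therefore carried the transgene and had tumors. Each pool is RNA of 3 mice mixed in equal mass, and whether both Phf8-KO pools hold different mice is not stated, so a p-value covers only the spread between these libraries.

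Cells about to divide make these transcripts late in the cycle and lose them after division. In resting cells their promoters are held off by the DREAM complex, and in cycling cells they are switched on by B-MYB with the MuvB core and then by FOXM1, in many cases through a short promoter element called the CHR and nearby CCAAT boxes. The large T antigen of SV40, the oncoprotein of this model, inactivates the retinoblastoma proteins and p53, so that tumor cells enter the cycle. In whole tumor RNA the level of such genes goes with the number of cycling cells, and fewer cycling cells and less RNA per cell cannot be told apart.

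The promoters show the sequence features that these genes share. RefSeq promoters of GRCm38.p6, from 250 bases before to 50 bases after the start, were matched for 36 of the 44 genes. The 8 without a promoter were Foxm1, Ccna2, Cdc25c, Pbk, Aurkb, Incenp, Tpx2 and Kif20a. The letters of the CHR, TTTGAA on either strand, stood in 26 of the 36, or 72.2%, against 20.2% of 27025 genes with a promoter in the table. The CCAAT box, CCAAT on either strand, stood in 27 of the 36 or 75.0%, against 41.1% of all genes, and 23 of the 36 held both. The letters TATAAA were in 1 of the 36, a share of 2.78% against 15.7%, and TTTNNCGC, a form of the E2F site, in 4 of the 36, a share of 11.1% against 5.93%. A match is a description of the letters and not evidence of a bound site. The windows below run from 150 bases before to 30 bases after the start. Espl1, Kif23, Ube2c, Cdc20 and Ccnb2 are shown as genes far higher in the Phf8-KO pools, Top2a as the gene with the smallest fold change, and Pttg1 as one that was lower. The start used for Pttg1 lies inside the annotated gene (chr11:43420244-43427463). Its window, and its place among the genes without either motif, thus do not describe a start at the gene's outer end. The same holds for Kif2c (chr4:117159633-117182624), which is counted among the genes with TTTGAA. The starts used for Aurka and Ect2 also lie inside their annotated genes, by a shorter distance. Capitals mark TTTGAA and CCAAT or their reverse complements TTCAAA and ATTGG.
Espl1 (chr15:102296143-102296322, plus strand): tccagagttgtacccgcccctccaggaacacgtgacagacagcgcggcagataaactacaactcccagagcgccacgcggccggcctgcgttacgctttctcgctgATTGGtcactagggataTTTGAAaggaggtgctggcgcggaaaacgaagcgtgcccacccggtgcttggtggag
Kif23 (chr9:61946770-61946949, minus strand): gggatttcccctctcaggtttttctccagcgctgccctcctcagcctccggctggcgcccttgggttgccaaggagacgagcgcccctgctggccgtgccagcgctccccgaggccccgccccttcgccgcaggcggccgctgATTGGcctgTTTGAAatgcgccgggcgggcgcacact
Ube2c (chr2:164769779-164769958, plus strand): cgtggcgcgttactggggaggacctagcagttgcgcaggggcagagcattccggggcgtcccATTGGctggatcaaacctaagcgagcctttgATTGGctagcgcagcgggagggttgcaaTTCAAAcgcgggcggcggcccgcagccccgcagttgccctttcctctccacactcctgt
Cdc20 (chr4:118437314-118437493, minus strand): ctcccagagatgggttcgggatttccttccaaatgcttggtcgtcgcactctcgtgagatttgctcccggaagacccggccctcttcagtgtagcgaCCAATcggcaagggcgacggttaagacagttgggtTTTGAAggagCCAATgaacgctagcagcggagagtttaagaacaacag
Ccnb2 (chr9:70421525-70421704, minus strand): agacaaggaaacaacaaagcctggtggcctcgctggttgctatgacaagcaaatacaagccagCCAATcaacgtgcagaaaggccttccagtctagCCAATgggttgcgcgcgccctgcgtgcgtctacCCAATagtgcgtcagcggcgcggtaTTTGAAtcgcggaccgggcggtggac
Top2a (chr11:99024160-99024339, minus strand): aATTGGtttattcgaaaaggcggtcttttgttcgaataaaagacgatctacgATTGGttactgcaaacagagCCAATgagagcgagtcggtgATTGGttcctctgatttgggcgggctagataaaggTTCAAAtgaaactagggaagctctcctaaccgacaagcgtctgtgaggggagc
Pttg1 (chr11:43425952-43426131, minus strand): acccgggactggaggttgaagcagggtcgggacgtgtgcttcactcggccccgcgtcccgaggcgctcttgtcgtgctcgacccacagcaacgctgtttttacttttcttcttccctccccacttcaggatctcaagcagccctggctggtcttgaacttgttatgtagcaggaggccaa
The 26 genes with TTTGAA had a median log2 fold change, Phf8-KO over TRAMP, of 0.98, and the 10 without it 0.65. For the CCAAT box these medians were 0.96 in 27 genes and 0.46 in 9 genes. The groups with and without a motif were not matched for the GC content of the transcripts, with which the fold change moved (below). Top2a, with both motifs, shows that their presence did not go with a large difference in every gene. Bub3, which was lower in both Phf8-KO pools and is not shown, also held both motifs. Birc5, which was over 2-fold higher in both pools, held neither. Plk1, Aurka and Bub1b held both in the full promoter, and Ndc80 held TTTGAA alone. None of these genes held TTTGAA in the shorter window.

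Of the 44 mitotic genes, 42 exceeded the TRAMP level in each Phf8-KO pool, and 2, Bub3 and Pttg1, were below it in each. Over all tested genes 40.8% were higher in both pools and 42.8% lower in both, and among the 10225 genes at least as abundant as the lowest of the 44 the share higher in both was 48.5%. The median log2 fold change of the 44 was 0.90, against 0.01 over all tested genes. Fold changes ran up to 5.46, with 3 genes over 4-fold, 14 between 2-fold and 4-fold and 25 higher by less than 2-fold. In both pools taken alone, 14 of the 44 were over 2-fold higher than in TRAMP and 0 over 2-fold lower, where the shares of all tested genes were 11.7% and 12.4%, and 10.7% of the equally abundant genes were over 2-fold higher.

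In edgeR's quasi-likelihood test, adjusted over all tested genes, 0 of the 44 met both limits of a call, an adjusted p below 0.05 with more than a 2-fold difference. That test called 0.0384% of all genes, 7 in number and all lower. At an unadjusted p under 0.05, 31 of the 44 were higher and 1, Pttg1, was lower, against 14.9% and 12.2% of all genes. DESeq2, the tool of the study, called 16 of the 44 higher and 0 lower, against 8.42% and 4.10% of all genes. The smallest adjusted p of a mitotic gene in edgeR's quasi-likelihood test was 0.101. The fit had 1 residual degree of freedom, from the Phf8-KO pools alone, so TRAMP is taken to vary as they do.

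**Figure D1:**
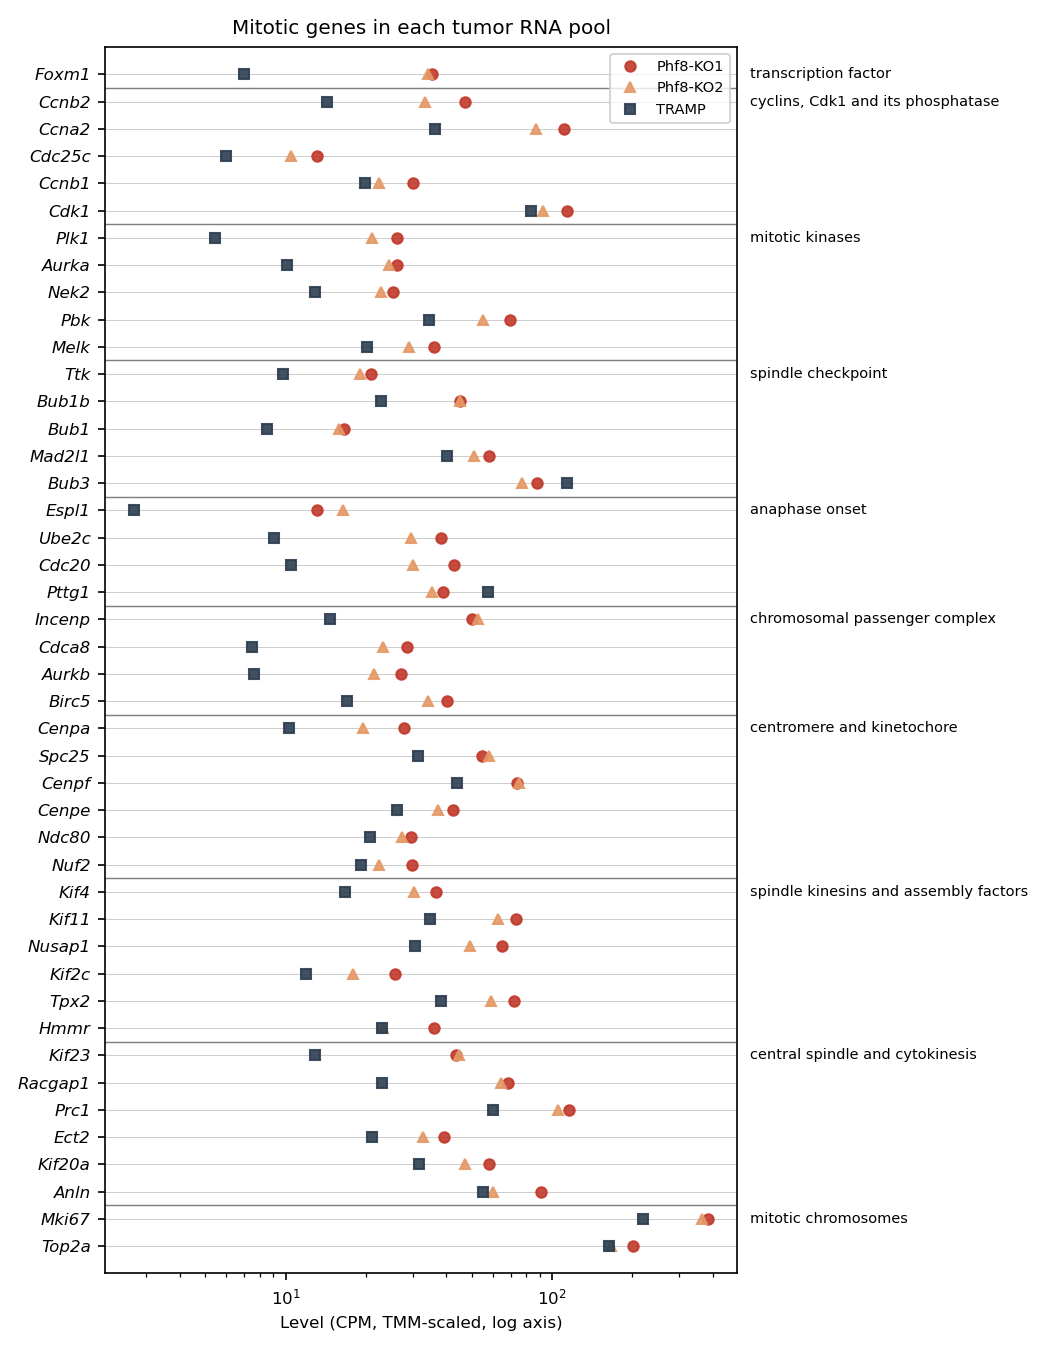
Level of each of the 44 mitotic genes in CPM (log axis) in the Phf8-KO1 (circles), Phf8-KO2 (triangles) and TRAMP (squares) pools, grouped by role and ordered by fold change within a role. The TRAMP square lies left of both Phf8-KO points for 42 genes and right of them for Bub3 and Pttg1.

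Foxm1, the forkhead factor that switches on late cell cycle genes, lies on the plus strand of chromosome 6 (GRCm38, 128362994 to 128375886). In CPM, the count scaled to library size after TMM normalization, it stood at 35.4 in Phf8-KO1 and 34.2 in Phf8-KO2, against 6.96 in TRAMP. The Phf8-KO pools lay close together and far above TRAMP. This is a log2 fold change of 2.32 with a standard error of 0.23, for which edgeR's quasi-likelihood test gave an adjusted p of 0.101 and DESeq2 6.97e-08. By unadjusted p, Foxm1 ranked 84 among the 18216 genes, before every other mitotic gene.

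Among the cyclins and their kinase, the cyclins A2 and B2 stood apart from B1. Ccnb2 was at 47.0 and 33.4 CPM in Phf8-KO pools, against 14.3 CPM in TRAMP, a log2 fold change of 1.49 (standard error 0.31). Ccna2, the cyclin of S and G2 phase, was at 111 and 86.7 CPM in Phf8-KO pools, against 36.5 CPM in TRAMP, a log2 fold change of 1.44. Cdc25c, a phosphatase that activates Cdk1, was at 13.1 and 10.4 CPM in Phf8-KO pools, against 5.95 CPM in TRAMP, a log2 fold change of 0.98 (standard error 0.38). For these 3 genes each Phf8-KO pool lay above TRAMP, and DESeq2 called Ccna2 and Ccnb2 higher but not Cdc25c. Ccnb1, the main partner of Cdk1 in mitosis, was at 29.99 and 22.4 CPM in Phf8-KO pools, against 19.9 CPM in TRAMP. Cdk1, the kinase itself, was at 114 and 92.7 CPM in Phf8-KO pools, against 83.4 CPM in TRAMP, a log2 fold change of 0.31 (standard error 0.22). For Ccnb1 and Cdk1 the Phf8-KO pools lay farther from each other than the nearer pool lay from TRAMP.

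All 5 kinases of the mitotic kinase group were higher in both Phf8-KO pools. Plk1, polo-like kinase of mitotic entry and spindle assembly, was at 26.1 and 21.1 CPM in Phf8-KO pools, against 5.43 CPM in TRAMP, a log2 fold change of 2.12 (standard error 0.31). Aurka, the aurora kinase of the centrosome and spindle poles, was at 26.2 and 24.4 CPM in Phf8-KO pools, against 10.1 CPM in TRAMP, a log2 fold change of 1.32. Both were called higher by DESeq2, with adjusted p-values of 4.9e-05 and 0.0096. Nek2, a centrosome kinase, had a log2 fold change of 0.90, Pbk 0.85 and Melk 0.69, with Melk at 36.0 and 29.1 CPM in Phf8-KO pools, against 20.2 CPM in TRAMP.

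The spindle checkpoint holds back anaphase until every chromosome is attached, and its genes were divided. Ttk, the MPS1 kinase at the head of the checkpoint, was at 21.0 and 19.0 CPM in Phf8-KO pools, against 9.76 CPM in TRAMP, a log2 fold change of 1.03. Bub1b, which encodes BUBR1 of the checkpoint complex, was at 45.2 CPM in each Phf8-KO pool and 22.8 CPM in TRAMP, a log2 fold change of 0.99 (standard error 0.19). Bub1, a kinetochore kinase, followed at 0.93. Mad2l1, which encodes MAD2, differed less, at 58.1 and 50.8 CPM in Phf8-KO pools, against 40.4 CPM in TRAMP. Bub3, the partner of BUB1 and BUBR1, was at 87.4 and 77.2 CPM in Phf8-KO pools, against 114 CPM in TRAMP, a log2 fold change of -0.47 (standard error 0.19). Bub3 was thus the most abundant of these 5 genes by CPM in all 3 pools and the only one of them lower in the Phf8-KO pools.

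The genes of anaphase onset held both the highest and the lowest fold change of the 44. Espl1 encodes separase, the protease that cuts cohesin, and was at 13.1 and 16.4 CPM in Phf8-KO pools, against 2.70 CPM in TRAMP, from 350, 542 and 78 counts. Its log2 fold change was 2.45 (standard error 0.40), and it was the lowest of the 44 in TRAMP. Ube2c, the ubiquitin-conjugating enzyme of the anaphase-promoting complex (APC/C), was at 38.4 and 29.4 CPM in Phf8-KO pools, against 9.07 CPM in TRAMP. Cdc20, the APC/C activator, was at 42.7 and 30.1 CPM in Phf8-KO pools, against 10.5 CPM in TRAMP, a log2 fold change of 1.80 after 1.90 for Ube2c. DESeq2 called Espl1, Ube2c and Cdc20 higher. Pttg1 encodes securin, the inhibitor of separase, and was at 38.8 and 35.6 CPM in Phf8-KO pools, against 57.6 CPM in TRAMP, with a log2 fold change of -0.63 and a standard error of 0.18 (edgeR's quasi-likelihood adjusted p = 0.15). Separase and its inhibitor thus lay on opposite sides of TRAMP in both pools.

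The chromosomal passenger complex corrects chromosome attachment and then acts at the midzone, and all 4 of its genes were over 2-fold higher in both Phf8-KO pools and were called higher by DESeq2. Incenp, its scaffold, was at 50.2 and 52.8 CPM in Phf8-KO pools, against 14.7 CPM in TRAMP, a log2 fold change of 1.80 (standard error 0.20). Cdca8, which encodes borealin, was at 28.6 and 23.3 CPM in Phf8-KO pools, against 7.48 CPM in TRAMP, a log2 fold change likewise of 1.80. Aurkb, its kinase, was at 27.2 and 21.6 CPM in Phf8-KO pools, against 7.58 CPM in TRAMP. Birc5, which encodes survivin, differed least of the 4, at 40.5 and 34.1 CPM in Phf8-KO pools, against 17.0 CPM in TRAMP, a log2 fold change of 1.14. No other group of more than 1 gene had every member over 2-fold higher in both pools.

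The 6 centromere and kinetochore genes were higher in both pools, none of them over 2-fold in both. Cenpa, the histone variant that marks centromeres, was at 27.8 and 19.5 CPM in Phf8-KO pools, against 10.3 CPM in TRAMP, a log2 fold change of 1.20 (standard error 0.34). Spc25, of the NDC80 complex that holds microtubules, was at 54.8 and 58.2 CPM in Phf8-KO pools, against 31.3 CPM in TRAMP, a log2 fold change of 0.85. Its partners in that complex differed less, with Ndc80 at 0.46 and Nuf2 at 0.45 on the log2 scale. Nuf2 was at 29.7 and 22.5 CPM in Phf8-KO pools, against 19.1 CPM in TRAMP, and the pools lay farther from each other than Phf8-KO2 lay from TRAMP. Cenpf, a large kinetochore protein gene, and Cenpe, a kinetochore motor gene, had log2 fold changes of 0.76 and 0.61.

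The spindle kinesins and assembly factors were likewise higher in both pools, with log2 fold changes of 0.37 to 1.01. Kif4, a chromosome-bound kinesin gene, led them at 36.8 and 30.3 CPM in Phf8-KO pools, against 16.6 CPM in TRAMP. Kif11, the motor that pushes spindle poles apart, was at 73.2 and 62.4 CPM in Phf8-KO pools, against 34.7 CPM in TRAMP. Nusap1, a microtubule-binding protein gene, was at 64.9 and 49.0 CPM in Phf8-KO pools, against 30.7 CPM in TRAMP. These 3 genes had log2 fold changes of 1.01, 0.96 and 0.89. Kif2c, a microtubule depolymerase gene, and Tpx2, the activator of aurora A, followed at 0.86 and 0.78. Hmmr, a spindle protein gene, was at 36.2 CPM in Phf8-KO1 but 23.2 CPM in Phf8-KO2, against 23.1 CPM in TRAMP, so that its difference rested on Phf8-KO1.

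In cytokinesis, the 2 genes of centralspindlin stood out. Kif23, its kinesin, was at 43.4 and 44.6 CPM in Phf8-KO pools, against 12.8 CPM in TRAMP, a log2 fold change of 1.78 (standard error 0.21). Racgap1, its GTPase-activating subunit, was at 68.0 and 64.2 CPM in Phf8-KO pools, against 22.9 CPM in TRAMP, a log2 fold change of 1.53 (standard error 0.20). Both were called higher by DESeq2, with adjusted p-values of 1.5e-05 and 4.9e-05. Prc1, which bundles the midzone microtubules, had a log2 fold change of 0.88, Ect2, the activator of RhoA that centralspindlin recruits, 0.78, and Kif20a 0.73. Anln, the scaffold of the contractile ring, was at 91.1 CPM in Phf8-KO1 but 60.0 CPM in Phf8-KO2, against 55.0 CPM in TRAMP, a log2 fold change of 0.46. As for Hmmr, its Phf8-KO pools lay farther from each other than Phf8-KO2 lay from TRAMP.

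The 2 genes of mitotic chromosomes, both widely used as marks of proliferation, differed from each other. Mki67, which encodes Ki-67, was at 386 and 367 CPM in Phf8-KO pools, against 220.1 CPM in TRAMP, a log2 fold change of 0.77 (standard error 0.23). Top2a, the topoisomerase that untangles chromosomes, was at 201 and 166 CPM in Phf8-KO pools, against 163 CPM in TRAMP, a log2 fold change of 0.17 (standard error 0.22). In Phf8-KO2 Top2a was nearly at its TRAMP level, and it had the smallest absolute fold change of the 44.

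Per length, in CPM for each kilobase of annotated exon, the order of the 44 genes differed between the genotypes. This length joins the exons of all annotated transcripts of a gene. For Prc1 it is 8225 bases against 3026 in the longest coding transcript, and for Mki67 both are 10061. The order given here therefore holds only for this length. In the Phf8-KO pools the highest levels were those of Pbk, at 38.7 and 30.8, Mki67, at 38.4 and 36.5, and Ccnb2, at 30.7 and 21.8. In TRAMP Pttg1 was highest at 28.8, before Mki67 at 21.9, and in the Phf8-KO pools Pttg1 stood at 19.4 and 17.8. Espl1 was lowest in all 3 pools, at 1.501 and 1.87 in the Phf8-KO pools and 0.309 in TRAMP. Securin transcripts per length thus exceeded those of separase by far in every pool.

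The Phf8-KO pools were not alike. Of the 44 genes, 38 were higher in Phf8-KO1 than in Phf8-KO2, against 50.1% of all tested genes. The median log2 ratio of Phf8-KO1 to Phf8-KO2 was 0.27 over the 44 and 0.00 over all tested genes. For 6 of the 44, Ccnb1, Cdk1, Nuf2, Hmmr, Anln and Top2a, the gap between the pools was larger than the gap from the nearer pool to TRAMP. Incenp, Kif23, Spc25, Cenpf and Espl1 were higher in Phf8-KO2, and Bub1b was level in both. In sum over the 44 genes, the level was 2611 and 2252 CPM in Phf8-KO pools, against 1466 CPM in TRAMP, a ratio of 1.66. With 1 library against 2, an exact permutation test over the libraries cannot reach 0.05.

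**Figure D2:**
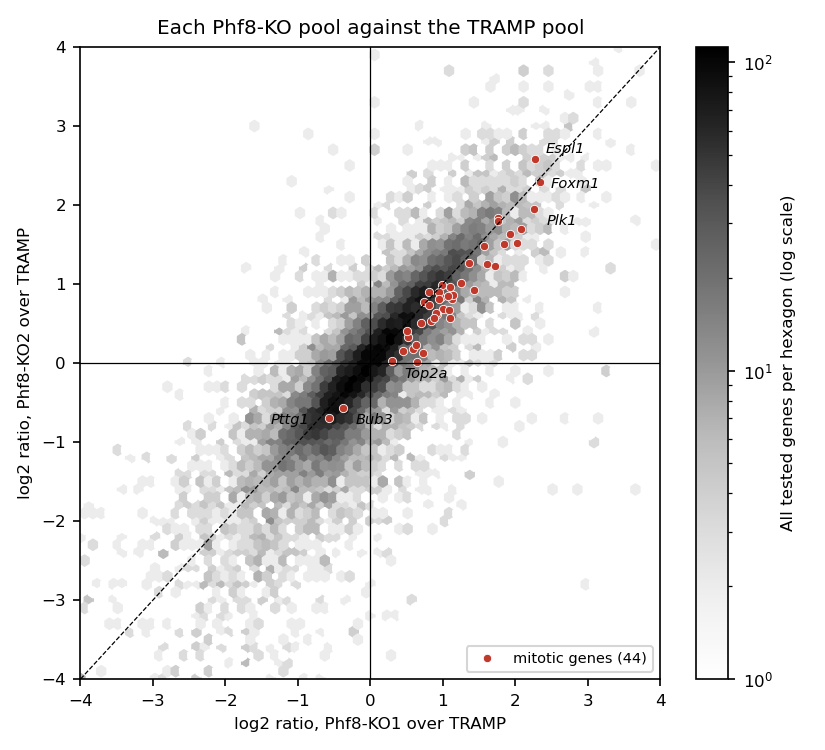
The log2 ratio to TRAMP in Phf8-KO1 (x axis) and in Phf8-KO2 (y axis) for all tested genes (grey hexagons, darker with more genes) and for the 44 mitotic genes (red points), computed on log2 CPM (prior count 1). 42 of the red points lie in the upper right corner, Bub3 and Pttg1 in the lower left, and 38 lie below the dashed line of equal ratios.

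The fold change of the mitotic genes moved with the GC content of their transcripts, and so did that of genes in general. Across the 44 genes the correlation between the GC share of the longest coding transcript and the log2 fold change was 0.74 (Pearson's r) and 0.70 (Spearman's rho). Across 16967 tested genes with a GENCODE transcript the values were 0.26 and 0.40, and for the ratio of Phf8-KO1 to Phf8-KO2 they were -0.03 and -0.04. Genes are not independent, and all share the same 3 libraries, so these are descriptions. The trend therefore set TRAMP apart from both Phf8-KO pools, and with 1 TRAMP library a difference in GC response of the library and the genotype cannot be told apart.

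The mitotic genes as a whole are not rich in GC, with a median of 46.4% against 49.9% over all tested genes. In the class of 42% to 44% GC, the median log2 fold change was 0.68 for 8 mitotic genes and -0.42 for all 1390 genes of the class. In the class of 54% to 56% GC it was 1.90 for 5 mitotic genes and 0.43 for all 1685 genes. In each of 9 GC classes the median of the mitotic genes lay above that of all genes, and the 2 genes below their class median were Bub3 and Pttg1. Some classes held few mitotic genes, with 3 at 48% to 50% GC, 2 at 52% to 54% and only 1, Espl1, at 56% or more. With scaling adjusted for GC, the median log2 fold change of the 44 was 1.07, 42 were still higher in both pools and 22 over 2-fold in both, against 37.3% and 7.23% of all genes under the same scaling. Under that scaling edgeR's quasi-likelihood test called 0, and 35 were higher at an unadjusted p under 0.05, against 10.2% of all genes.
The order among the 44 moved with this adjustment. The 13 genes of at least 50% GC had a median log2 fold change of 1.80, and 1.40 with the adjustment, while the 31 genes under 50% GC had 0.78, and 1.05 with the adjustment. On the adjusted log2 scale Foxm1 stood at 1.89, Plk1 at 1.57 and Espl1 at 1.89, and Kif23, at 46.3% GC, stood highest of the 44 at 1.93. Top2a stood at 0.47 after the adjustment and Bub3 at -0.12. The correlation of the adjusted fold change with GC over the 44 was 0.42 (Pearson's r).

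**Figure D3:**
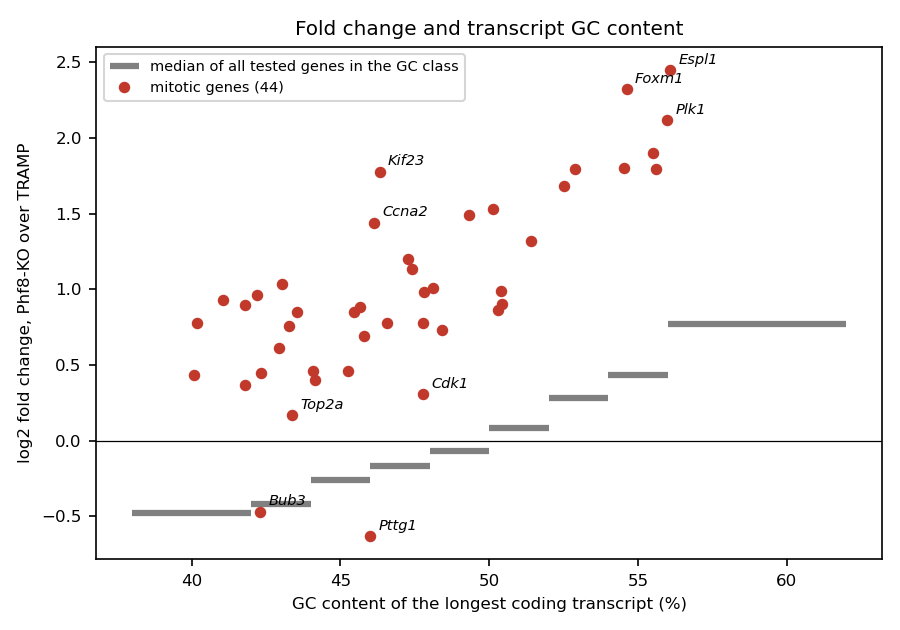
The log2 fold change, Phf8-KO over TRAMP, of the 44 mitotic genes (red points) against the GC content of their longest coding transcript, with the median of all tested genes in each of 9 GC classes (grey bars, the outer classes cut at the plotted range). The bars climb from -0.48 to 0.77, and 42 red points lie above the bar of their class.

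Markers of cell types differed between the libraries as well, most lists in the same direction in both Phf8-KO pools and some not. The 6 epithelial markers (Epcam, Krt8, Krt18, Krt19, Cdh1 and Cldn7) summed to 7144 and 6328 CPM in Phf8-KO pools, against 4856 CPM in TRAMP, so the tumors of both genotypes held epithelium. Of the 6, 5 were higher in both Phf8-KO pools, and Krt18 was lower in both, at 1305 and 1348 CPM in Phf8-KO pools, against 1557 CPM in TRAMP. Divided by this sum, the summed level of the mitotic genes was 0.365 and 0.356 in the Phf8-KO pools and 0.302 in TRAMP, or 1.21 and 1.18 times the TRAMP value, where without the division it was 1.78 and 1.54 times. Relative to the epithelial markers 34 of the 44 were higher in both Phf8-KO pools and 5 were lower in both, namely Cdk1, Bub3, Mad2l1, Pttg1 and Top2a. These epithelial markers are rich in GC, with a median of 56.7%, and their median log2 fold change was 0.66, and 0.18 with the GC adjustment, so the epithelial ratios hold only for the scaling without it. The 7 seminal vesicle markers were all over 2-fold higher in both Phf8-KO pools and were all called higher by DESeq2, with a sum of 1435 and 2101 CPM in Phf8-KO pools, against 116 CPM in TRAMP. The 6 erythroid markers were all over 2-fold lower in both, with a sum of 98.4 and 68.0 CPM in Phf8-KO pools, against 394 CPM in TRAMP. The 8 skeletal muscle markers summed to 73.8 and 17.1 CPM in Phf8-KO pools, against 1684 CPM in TRAMP, and the 6 adipocyte markers to 19.5 and 30.8 CPM in Phf8-KO pools, against 655 CPM in TRAMP. The 8 smooth muscle markers stood at 5197 CPM in Phf8-KO1, 413.8 CPM in Phf8-KO2 and 699.7 CPM in TRAMP, with the Phf8-KO pools on opposite sides of TRAMP. Prostate luminal secretory markers summed to 5731 and 1193 CPM in Phf8-KO pools, against 7991 CPM in TRAMP, and fibroblast markers to 1689 and 703 CPM in Phf8-KO pools, against 1725 CPM in TRAMP. These sums weight the abundant markers. Of the 6 luminal markers, 1 was higher in both pools and 4 were lower in both. Of the 6 fibroblast markers, 3 were higher in both and 1 was lower, with a median log2 fold change of 1.01. Endothelial markers summed to 56.15 and 95.7 CPM in Phf8-KO pools, against 93.7 CPM in TRAMP, and urothelial markers to 879 and 905 CPM in Phf8-KO pools, against 883 CPM in TRAMP. Of the 6 endothelial markers, 3 were higher in both pools and 2 lower. Of the 5 urothelial markers, 1 was higher in both and 3 were lower, 2 of these over 2-fold. Over all tested genes 40.8% were higher in both pools and 42.8% lower. T cell, B cell and macrophage markers, from cells that can also divide, were at or below 205 CPM in sum in the Phf8-KO pools and lower there than in TRAMP wherever tested, with Cd2 and Trac at 0 counts in all 3 pools. The part of these cell types in the levels of the mitotic genes was not tested.

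Other genes of cell division were read from lists of textbook genes. Beside each list stand the shares over all tested genes, 40.8% higher and 42.8% lower in both pools. Of all genes, DESeq2 called 8.42% higher, and 14.9% were higher at an unadjusted p under 0.05 in edgeR's quasi-likelihood test. Of 43 tested further G2/M genes, 41 lay above TRAMP in each Phf8-KO pool and 1 below, with a median log2 fold change of 0.92, close to that of the 44. DESeq2 called 15 of them higher, and edgeR's quasi-likelihood test called 0, with 25 higher at an unadjusted p under 0.05. Among the highest were Fam83d, a spindle protein gene at 7.77 and 6.28 CPM in Phf8-KO pools, against 1.38 CPM in TRAMP, and Iqgap3 at 25.7 and 21.6 CPM in Phf8-KO pools, against 5.05 CPM in TRAMP. Kifc1 had no count in Phf8-KO2 or TRAMP and was not tested. Of 18 S phase genes, all were higher in both pools, with a median of 0.94. DESeq2 called 8 of them higher, and edgeR's quasi-likelihood test called 0, with 14 higher at an unadjusted p under 0.05. Cdt1, the licensing factor of replication, was at 71.8 and 79.4 CPM in Phf8-KO pools, against 15.3 CPM in TRAMP. Uhrf1, which keeps DNA methylation through replication, was at 119.7 and 121.9 CPM in Phf8-KO pools, against 31.9 CPM in TRAMP.

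Machinery that also acts outside mitosis had smaller median fold changes. Of 17 APC/C subunits and regulators, 9 lay above TRAMP in each Phf8-KO pool and 7 below, with a median log2 fold change of 0.22, and DESeq2 called 2, Fzr1 and Anapc11, higher. Fzr1, the APC/C activator of late mitosis and G1, was at 37.7 and 45.3 CPM in Phf8-KO pools, against 16.0 CPM in TRAMP. Of 16 condensin and cohesin genes, 8 were higher and 6 lower in both pools, with a median of 0.16. Ncapd2, a condensin I subunit, was the exception, at 104 and 103 CPM in Phf8-KO pools, against 26.0 CPM in TRAMP, a log2 fold change of 1.99 (standard error 0.19). Of 12 DREAM and MYB-MuvB regulators, 8 were higher and 2 lower in both pools, with a median of 0.33. Mybl2, which encodes B-MYB, led them at 6.87 and 8.42 CPM in Phf8-KO pools, against 1.83 CPM in TRAMP, a log2 fold change of 2.06, and DESeq2 called it higher. E2f4 and the p107 gene Rbl1, parts of DREAM, had log2 fold changes of 0.90 and 0.81, and the p130 gene Rbl2 was at 83.3 and 87.5 CPM in Phf8-KO pools, against 91.1 CPM in TRAMP. In these 3 lists edgeR's quasi-likelihood test called 0 genes, with 3 to 6 a list higher at an unadjusted p under 0.05. With the GC adjustment the medians of the 3 lists were 0.05 for the APC/C, 0.26 for condensin and cohesin and 0.40 for the regulators. The adjusted log2 fold changes were 0.49 for Fzr1, 0.81 for Anapc11, 1.615 for Ncapd2 and 1.48 for Mybl2. They were 0.34 for E2f4 and 1.17 for Rbl1, in the reverse of their order without the adjustment.

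**Figure D4:**
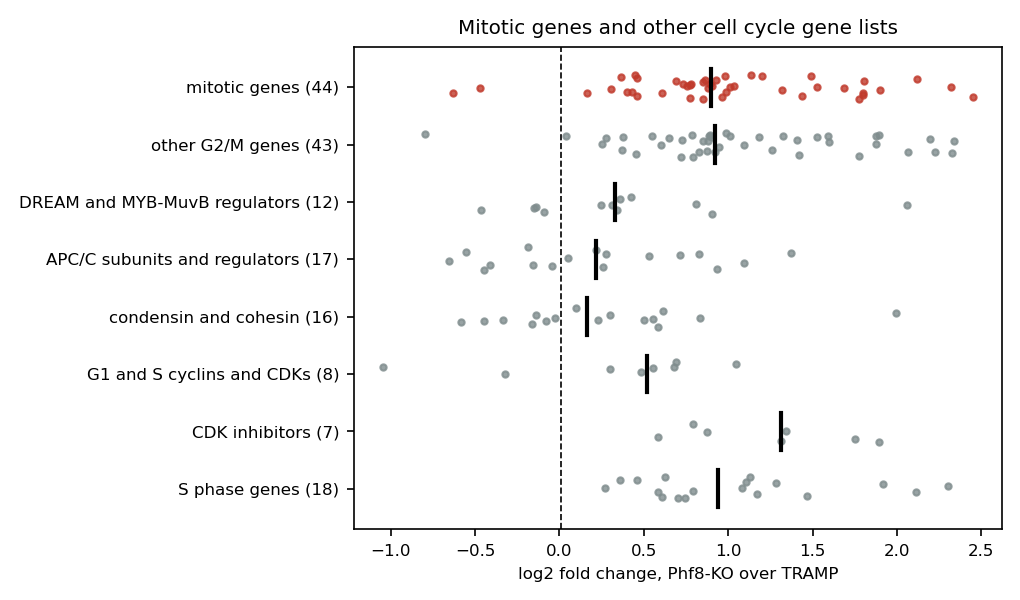
The log2 fold change, Phf8-KO over TRAMP, of each gene (points) of the 44 mitotic genes and of 7 further cell cycle lists, with the median of each list (black bar) and of all tested genes (dashed line); the number of tested genes stands in brackets. The bars of the mitotic, other G2/M and S phase genes lie between 0.90 and 0.94, and those of the APC/C and of condensin and cohesin at 0.22 and 0.16. The bar of the inhibitors of cyclin-dependent kinases lies highest, at 1.31. With the GC adjustment, which is not plotted, their median was 0.80, below those of the mitotic (1.07), other G2/M (1.08) and S phase genes (0.87).

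Reads of 13 of the 44 genes can meet exons of another annotated gene, and since the strand setting of the counting is not stated, such reads cannot be told apart. The partners include Exosc9 for Ccna2, Cdc23 for Kif20a, Oip5 for Nusap1, Elovl1 for Cdc20 and the fast muscle troponin gene Tnnc2 for Ube2c. Tnnc2 was at 31.2 CPM in Phf8-KO1 but 1.39 CPM in Phf8-KO2, against 231 CPM in TRAMP, which is the opposite direction to Ube2c. Ccnb1, Ccnb2 and Kif4 have an annotated pseudogene each, with which reads may be shared.

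The libraries held 26747443 counts for Phf8-KO1, 31876182 for Phf8-KO2 and 29954020 for TRAMP, and each mitotic gene had between 78 and 12150 counts in a library. Phf8, the gene that was knocked out, was at 15.0 and 15.9 CPM in Phf8-KO pools, against 19.4 CPM in TRAMP, with a log2 fold change of -0.33 and a standard error of 0.25 (edgeR's quasi-likelihood adjusted p = 0.44). The part of Phf8 that the allele lacks is not given in the sources used here, so counts over the whole gene do not check the genotype.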

How the data were processed

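Per the labels, the deposited values are raw read counts per gene symbol, which the authors made by filtering the reads, mapping them to GRCm38 with HISAT2 and counting with HTSeq. Their versions, the annotation and the strandedness of the counting are not given in the sources used here. The counts were fitted with edgeR 4.0.16 under R 4.3.3 (quasi-likelihood test at its default setting, TMM scaling, filterByExpr by group, Benjamini-Hochberg adjustment over 18216 genes), and calls needed an adjusted p below 0.05 with more than a 2-fold difference, as in the study. Standard errors are the absolute log2 fold change over the square root of F. CPM are on TMM library sizes, with factors of 0.997, 1.04 and 0.965 for Phf8-KO1, Phf8-KO2 and TRAMP, and 3 counts correspond to 0.113, 0.0905 and 0.104 CPM. DESeq2 1.42.0 and limma 3.58.1 (voom) were alternatives, beside other scalings and filters, the likelihood ratio test and leaving out each Phf8-KO pool. DESeq2 gave no adjusted p for 9488 of 25757 genes with a count. Coordinates and promoters are from RefSeq and exon lengths, overlaps and transcript GC from GENCODE M21, both on GRCm38. GC content was known for 93.1% of tested genes, and the GC adjustment added a loess of each library's level on GC (span 0.3, genes of at least 1 CPM) as an offset. Sgol1, Sgol2a and Casc5 were matched to Sgo1, Sgo2a and Knl1. The 44 genes, the lists and the tests were chosen with earlier results of these data known. Every one of the 44 genes is named, and of each further list up to 3 genes with the largest fold change at a mean of at least 1 CPM with both pools above or both below TRAMP could be named. The marker genes, Rbl2, Kifc1 and Tnnc2 were named for other reasons, after their values were seen. The script was tested on simulated counts of 1 library against 2. The sums of 1 further marker list are not reported here.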

Additional observations from a re-analysis of the deposited data

How the results depend on the processing

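No paired analysis was possible because the labels number only the Phf8-KO libraries and TRAMP has 1. The count of 42 mitotic genes above TRAMP in each Phf8-KO pool and 2 below cannot change when either pool is left out, so this was no check. It was the same with RLE scaling, library size only and the GC adjustment. It was 37 and 2 with upper quartile scaling, under which the all-gene median log2 fold change shifted by -0.15, and 34 and 5 when scaled to the epithelial markers, under which Pttg1 was the 1 gene over 2-fold lower in both pools. No mitotic gene changed the sign of its fitted fold change under RLE, upper quartile, library size or GC-adjusted scaling or in DESeq2. The GC adjustment and the epithelial scaling were added after seeing the data.

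The number of mitotic genes over 2-fold higher in both pools was 22 with the GC adjustment and ranged from 14 to 22 without 1 pool, with 22 in Phf8-KO1 alone. The median log2 fold change was 0.75 with upper quartile scaling and 1.07 with the GC adjustment, and ranged from 0.82 to 0.996 without 1 pool. The ratio of summed levels was 1.86 with the GC adjustment, 1.91 without the 5 most abundant genes and 1.195 when scaled to the epithelial markers, and ranged from 1.54 to 1.78 without 1 pool.

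Calls depended on the test, and the cause was not tested. Of the mitotic genes, 17 were called higher without a filter on low counts, 16 by DESeq2 and 13 by the likelihood ratio test, and at an unadjusted p under 0.05 the counts were 31 higher, 1 lower. Over all genes the quasi-likelihood test called 7 lower and 0 higher. These counts were 19 and 1 with library size only, 856 and 1430 without the filter, 747 and 1533 by DESeq2, 980 and 1096 by the likelihood ratio test, and 2225 and 2717 at an unadjusted p under 0.05. With limma-voom and at a mean CPM of at least 1, 0 genes were called lower and 0 higher.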

Other observations

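Inhibitors of cyclin-dependent kinases, which hold cells in G1, were at higher levels in the Phf8-KO pools together with the mitotic genes. All 7 were higher in both pools, with a median log2 fold change of 1.31, and 0.80 with the GC adjustment. DESeq2 called 3 of them higher, 6 were higher at an unadjusted p under 0.05, and edgeR's quasi-likelihood test called 0. Over all tested genes 40.8% were higher in both pools, 8.42% called higher by DESeq2 and 14.9% higher at an unadjusted p under 0.05. Cdkn1a, the p21 gene, was at 29.7 and 41.8 CPM in Phf8-KO pools, against 9.62 CPM in TRAMP, a log2 fold change of 1.89. Cdkn1c, the p57 gene, was at 21.8 and 35.2 CPM in Phf8-KO pools, against 8.45 CPM in TRAMP. Their median log2 ratio of Phf8-KO1 to Phf8-KO2 was -0.46, against 0.27 for the mitotic genes.

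Of 8 cyclins and kinases of G1 and S phase, 6 lay above TRAMP in each Phf8-KO pool and 1, Ccnd2, below. Over all tested genes these shares were 40.8% and 42.8%. Ccnd2, which encodes cyclin D2, was at 6.83 and 9.27 CPM in Phf8-KO pools, against 16.6 CPM in TRAMP, a log2 fold change of -1.04. Cdk2, the kinase of S phase entry, was at 80.2 and 100.7 CPM in Phf8-KO pools, against 43.8 CPM in TRAMP, and DESeq2 called it higher. With the GC adjustment the median log2 fold change of the 8 was 0.13, against 0.52 without it.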
